A study of Mus musculus with 2 samples.

Results

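Neutrophils were taken from the liver cell suspensions of 2 mouse libraries and were chosen by a rule on deposited counts of UMIs, each of which stands for 1 captured RNA molecule. A cell barcode was a member when it had at least 20 UMIs of S100a8 and S100a9 together and at least 2 of the 5 genes Retnlg, Csf3r, Cxcr2, G0s2 and Ly6g. It also had at most 5 UMIs of C1qa, C1qb and C1qc (macrophage genes), none of Cd3d, Cd3e and Cd3g (T cells) and at most 1 of Cd79a, Cd79b and Ms4a1 (B cells). Barcodes with under 200 genes or over 20% mitochondrial UMIs were left out beforehand. The rule found 1728 neutrophils among 24093 kept barcodes, of 24655 in all: 969 in the wild-type library and 759 in the knockout library. The values of these rule genes, and every level of a gene in neutrophils against other cells, describe the choice and support nothing.

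The study compared livers of Mfap2+/+ mice (wild type) and Mfap2-/- mice (knockout) in an experimental fibrosis model. Both groups received carbon tetrachloride (CCl4), a hepatotoxin, by injection into the peritoneum for 8 weeks, and no untreated liver is included. The cells are non-parenchymal, the liver cells other than hepatocytes, profiled with droplet 3′ chemistry. Mfap2 encodes a protein of the microfibrils around elastic fibres. The deletion is not said to be restricted to a cell type, and the strain, number, age and sex of the animals behind each library are not given in the labels.

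Neutrophils are short-lived granulocytes made in bone marrow. Their granule proteins are transcribed in order as the cells mature: azurophil granule proteins at the promyelocyte stage, specific granule proteins after it, gelatinase granule proteins last, and receptors such as CXCR2 in the mature cell. In injured liver they are known for killing and oxidant functions, for the cytokines IL-1β and CXCL2, and for the collagenase MMP8 and the gelatinase MMP9, which cleave scar matrix.

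There was 1 library per genotype, so no test between genotypes was possible, and genotype, animal and library preparation cannot be told apart. Levels below are CPM, the UMIs of a gene summed over the neutrophils of a library per 1000000 of their UMIs. A log2 ratio sets the knockout sum over the wild-type sum, each with 1 count added and scaled by its library's neutrophil total. All intervals are at 95% and cover counting error only. Neutrophils had low depth: a median of 2464 UMIs and 1025 genes in the wild-type library and 2836 UMIs and 1200 genes in the knockout library, against 5382 and 6933.5 UMIs in the other cells. Their sums held 3110091 and 2633834 UMIs. The libraries shared 40 barcodes, of which 0 were neutrophils in both and 9 in either. Mfap2 itself, the check of the labels, had 257 UMIs in wild-type and 4 in knockout kept barcodes, and 2 and 0 in neutrophils, where it therefore could not be compared at this depth.

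Neutrophils made up 8.52% of kept barcodes in the wild-type library (8.02 to 9.05, Clopper-Pearson) and 5.97% in the knockout library (5.56 to 6.39). The log2 ratio of the shares was -0.51 (-0.65 to -0.38). It stayed below 0 in each of the 9 alternatives that changed the members, from -1.01 with 0 UMIs of the C1q, Cd3 and B cell genes to -0.30 without limits on these genes. Shares within a library sum to a whole, so the neutrophil share also moves with the recovery of every other cell type.

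The limits on other lineages removed many barcodes with neutrophil counts. Of 1383 wild-type and 1256 knockout barcodes that met the S100a8, S100a9 and second-gene conditions, 414 (29.9%) and 497 (39.6%) failed a limit. Those removed were deep, with medians of 19184.5 and 20148 UMIs, and they count among the other cells in all comparisons below. The removed barcodes were of at least 2 kinds. The 84 wild-type and 77 knockout barcodes that failed by C1q alone with over 20 C1q UMIs had S100a8 and S100a9 at medians of 0.0922% and 0.0740% of their UMIs. The 77 and 95 that failed by C1q alone with 6 to 10 C1q UMIs had 7.99% and 6.91%, close to the members' own medians of 8.83% and 6.10%. At the S100 threshold, the 33 wild-type and 25 knockout members with 20 to 24 UMIs had 787 and 1258 CPM of Il1r2, and the 28 and 21 barcodes just outside, with 15 to 19 UMIs, had 470 and 944 CPM.

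The name was checked against 6 neutrophil markers that the rule did not use, as a description. All 6, Mmp9, Mmp8, Wfdc21, Hdc, Mxd1 and Cd177, were at least 10-fold above the other cells in both libraries. Of all 9842 genes with at least 20 neutrophil UMIs, 8.73% were at least 2-fold above the other cells in both. The 9 macrophage markers summed to 2579 and 2904 CPM in wild-type and knockout neutrophils against 15166 and 13178 CPM in the other cells. The 8 T cell markers summed to 22.5 and 19 CPM, with 3 of them, the Cd3 genes that the rule sets to 0, at 0 in each library. Eosinophil markers summed to 30.2 and 28.9 CPM, and Siglecf had 17 and 13 UMIs. Haemoglobin-led erythroid markers summed to 1557 and 554 CPM and hepatocyte markers to 75.2 and 374 CPM in neutrophils; these 2 lists differed between the libraries in the other cells as well, at 2582 and 549 CPM and at 480 and 807 CPM. Their part in the results below was not tested.

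The genes that set the members apart most, by the lower ratio of both libraries, were Retnlg (resistin-like gamma; 58.9-fold and 59.9-fold above the other cells) and Il1f9, an IL-1 family cytokine (58.2-fold and 65.0-fold). Next came G0s2, an inhibitor of fat breakdown, S100a9 and S100a8, which form calprotectin, Hcar2, a receptor for ketone bodies, and Hdc, the enzyme that makes histamine. Hdc stood at 1476 CPM (1433 to 1519) in wild-type and 2247 CPM (2190 to 2305) in knockout neutrophils, 26.8-fold and 35.5-fold above the other cells. The other 13 of the 20 genes ranked this way were Wfdc21, Slc7a11, Trem1, Il1r2, Ngp, Ltf, Dach1, Lcn2, Acod1, Ptgs2, Ankrd33b, Pglyrp1 and Camp. Slc7a11, a cystine transporter, had 1592 and 2540 CPM, and Acod1, which makes itaconate, had 1942 and 2646 CPM. The decoy receptor gene Il1r2 had 814 CPM (783 to 847) and 1237 CPM (1195 to 1280). Slc7a11 and Acod1 were higher in the knockout neutrophils, with log2 ratios of 0.67 (0.62 to 0.73) and 0.45 (0.40 to 0.50), with -0.11 and -0.37 in all other cells pooled. Single cell groups differed among themselves. Classical monocytes had 113 and 153 CPM of Acod1 and 93.6 and 92.1 CPM of Slc7a11. B cells had 42.9 and 51.4 CPM of Acod1 and 36.7 and 47.6 CPM of Slc7a11. In patrolling monocytes both genes were lower in the knockout library, as in the pool. Acod1 had 287 and 269 CPM there and Slc7a11 403 and 187 CPM.

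Monocytes gave the nearest comparison. Classical monocytes (159 and 79 barcodes, chosen by Ly6c2, Ccr2 and Csf1r) had 3244 and 2982 CPM of Il1b and 2707 and 2378 CPM of Cxcl2, so neither transcript was restricted to neutrophils. Neutrophils had 7634 and 9664 CPM of Il1b and 10746 and 10047 CPM of Cxcl2. Hdc and Mmp9 were far lower in classical monocytes, at 34.4 and 39.1 CPM of Hdc and 10 and 1 UMIs of Mmp9. Csf1r, the receptor that marks monocytes, stood at 400 and 341 CPM in them and at 112 and 99.9 CPM in neutrophils. Other monocyte markers were not low in neutrophils. The 8 classical monocyte markers summed to 2157 and 1251 CPM, against 1599 and 1228 CPM in the other cells. The 8 patrolling monocyte markers summed to 2486 and 2019 CPM, against 1178 and 1043 CPM. Ly6c2 had 400 and 261 CPM in neutrophils, 903 and 840 CPM in classical and 32.2 and 28.4 CPM in patrolling monocytes.

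Over the 9842 genes, the median log2 ratio in neutrophils was 0.08, and it was 0.09 for the same genes in all other cells. At least 2-fold higher in knockout neutrophils were 591 genes (6.0%), and at least 2-fold lower were 318 (3.23%). Above 0 lay 55.6% of genes. These shares are the background for the counts of list members that follow, and a 2-fold difference is a size, not a test. Many of these genes were sparse: of the 5200 genes with at least 100 UMIs, 157 were at least 2-fold higher and 73 lower.

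**Figure D1:**
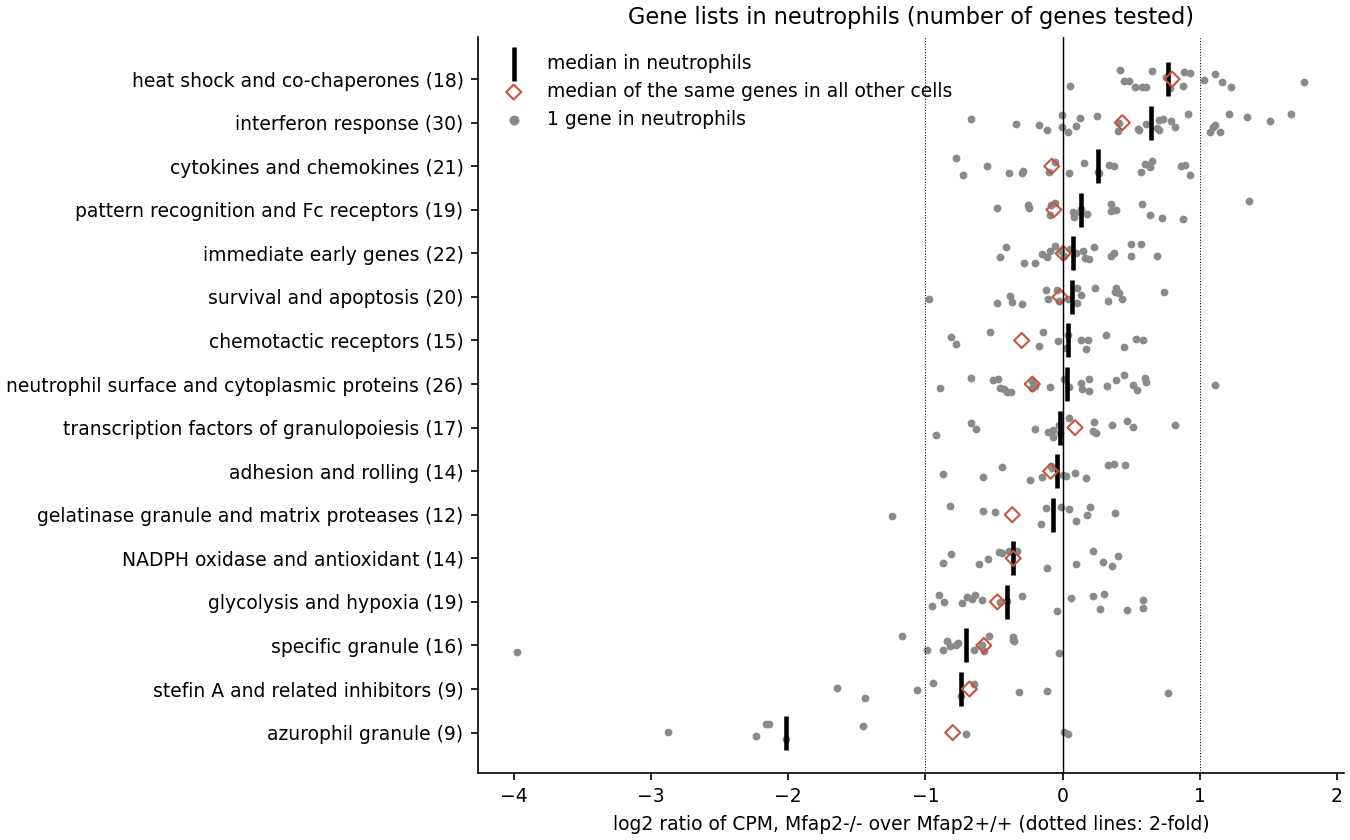
Log2 ratio of CPM (x axis, knockout over wild type) of the genes of 16 lists in neutrophils, 1 grey point per gene, lists ordered by their median (black bar); the open diamond is the median of the same genes in all other cells. The azurophil granule list lies lowest at -2.02 and the heat shock list highest at 0.77, and the diamond of the heat shock list, at 0.80, lies beside its black bar.

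Azurophil granule transcripts were lower in knockout neutrophils, and so, to a smaller extent, were those of specific granules. The stretches below show the start regions of 5 of these genes and, for the later comparison, of 1 interferon-induced gene. They are from gene sets that differed between the libraries and were picked for matches to motifs of factors known to act on such genes. They come from RefSeq promoters on build GRCm38.p6, 250 bases before the start, without bases that lie in a GENCODE M21 exon. Capitals mark matches on either strand to GAGGAAGT, a motif of PU.1, an ETS factor of early myeloid cells, in Mpo, Elane and Prtn3, to TTGCNNAA, a C/EBP motif, in Ngp and Ltf, and to the interferon-stimulated response element (GAAA, any 2 bases, GAAA) in Ifit1, where both matches are on the opposite strand.
Mpo, chr11:87793534-87793580, forward strand: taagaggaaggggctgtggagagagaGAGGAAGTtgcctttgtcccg
Elane, chr10:79886062-79886246, forward strand: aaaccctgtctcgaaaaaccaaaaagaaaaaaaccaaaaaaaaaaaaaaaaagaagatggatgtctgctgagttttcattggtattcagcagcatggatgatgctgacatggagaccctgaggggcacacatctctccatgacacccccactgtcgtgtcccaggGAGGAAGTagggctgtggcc
Prtn3, chr10:79879417-79879613, forward strand: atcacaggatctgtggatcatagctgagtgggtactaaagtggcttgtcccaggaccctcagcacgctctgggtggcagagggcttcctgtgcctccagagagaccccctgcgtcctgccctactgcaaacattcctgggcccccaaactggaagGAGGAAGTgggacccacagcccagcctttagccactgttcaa
Ngp, chr9:110419558-110419746, forward strand: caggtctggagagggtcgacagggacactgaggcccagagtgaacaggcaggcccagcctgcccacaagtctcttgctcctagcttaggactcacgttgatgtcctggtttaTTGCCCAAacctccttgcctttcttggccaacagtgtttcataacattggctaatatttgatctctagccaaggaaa
Ltf, chr9:111019042-111019270, forward strand: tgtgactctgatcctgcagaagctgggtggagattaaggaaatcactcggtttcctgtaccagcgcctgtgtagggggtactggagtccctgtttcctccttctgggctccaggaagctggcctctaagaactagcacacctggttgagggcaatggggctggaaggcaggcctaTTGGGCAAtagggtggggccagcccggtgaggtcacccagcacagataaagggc
Ifit1, chr19:34640744-34640870, forward strand: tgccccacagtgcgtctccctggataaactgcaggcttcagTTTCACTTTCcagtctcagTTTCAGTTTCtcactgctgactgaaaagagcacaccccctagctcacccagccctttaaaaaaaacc

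A match is a description of letters, not a site. Over whole windows of 250 bases, GAGGAAGT matched in 4 of the 9 azurophil list genes with a promoter (Mpo, Elane, Prtn3 and Ctsc) and in 2.44% of 32851 RefSeq promoters. It was not particular to that list: it also matched in 3 of 14 specific granule genes (Itgb2l, Mmp8 and Olfm4). It matched in 1 of 25 interferon response genes and 0 of 14 heat shock genes. TTGCNNAA matched in 5 of 14 specific granule genes (Ngp, Ltf, Lcn2, Mmp8 and Anxa1) and in 9.56% of promoters, and the interferon-stimulated response element in 11 of 25 interferon response genes and in 2.98%. The heat shock element (alternating GAA and TTC units with 2 bases between) matched in 2 of 14 heat shock genes, Hspd1 and Hspe1, and in 0.466%. The windows of Hspd1 and Hspe1 overlap, and their matches are the same bases read from opposite strands. The first base of the match lay at -224, -85 and -95 from the RefSeq start in Mpo, Elane and Prtn3. The motifs were chosen after the values were seen. Camp, Ctsg and Ms4a3 had no match to any of them, and the part of these factors in the differences was not tested.

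Of the 10 azurophil list genes, 9 had enough UMIs, with a median log2 ratio of -2.02 (-0.80 for the same genes in the other cells), 2 higher, 7 lower and 6 at least 2-fold lower. The other cells include the barcodes removed by the lineage limits. Most barcodes rich in azurophil transcripts are among them, so they are not a separate background for this list. Mpo, which makes hypochlorous acid (chromosome 11, 87793581 to 87804413, forward strand), had 184 CPM (571 UMIs) in wild-type and 24.7 CPM (65 UMIs) in knockout neutrophils, a log2 ratio of -2.88 (-3.29 to -2.52). Elane, neutrophil elastase (chromosome 10, 79886247 to 79888215), had 464 CPM (440 to 489) and 105 CPM (92.8 to 118). The serine protease gene Prtn3 (chromosome 10, 79874476 to 79883174) had 433 CPM (410 to 457) and 107 CPM (94.6 to 120). Ctsg, cathepsin G, and Ms4a3, a membrane protein of granulocyte precursors, were also lower, with log2 ratios of -2.16 and -2.24. Ctsc, the peptidase that activates these proteases, stood at 127 and 131 CPM, and Srgn, their proteoglycan carrier, at 4585 and 4629 CPM. Mpo is overlapped by Gm11505 and Prtn3 by Plppr3, both on the other strand, and the strand rule of the counting is not given in the sources used here.

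These azurophil transcripts sat in very few cells. The counting intervals given for them treat UMIs as independent and do not cover this clustering. Counting Mpo, Elane, Prtn3 and Ctsg together, 15 of 969 wild-type neutrophils (1.55%, 0.869 to 2.54) and 2 of 759 knockout neutrophils (0.264%, 0.0319 to 0.949) had 10 or more UMIs. The 15 cells held 93.1% of the 3592 wild-type UMIs of these 4 genes, and the 2 cells held 79.1% of the 665 knockout UMIs. They were deep, with medians of 14436 and 16805.5 UMIs, and 12 of the 15 and both of the 2 also had a UMI of Mki67 or Top2a, genes of dividing cells. In the remaining neutrophils the 4 genes summed to 85.4 and 53.5 CPM. B cells, used as background because they do not express these genes, had 67.7 and 39.3 CPM. The remainder was somewhat above the B cells in both libraries, although no B cells were left out by these UMIs. The part of free RNA from other cells in the remainder was not tested.

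The number of such cells depended on the C1q limit. Among all kept barcodes, 146 wild-type (1.28%) and 109 knockout barcodes (0.857%) had 10 or more of these UMIs, with a median of 8 and 11 C1q UMIs, so most of them exceeded the limit of 5. With at most 20 C1q UMIs, a limit chosen after the data were seen, 39 of 1082 wild-type (3.60%) and 14 of 894 knockout neutrophils (1.57%) were of this kind, and the list median was -0.99. With the rule applied to barcodes thinned at random to 1000 UMIs each, 2 of 853 wild-type and 0 of 686 knockout neutrophils were, and a count of 0, taken as at most 3 counts, allows a share of up to 0.437%. The list median was then -0.62, and it was -0.17 with 0 C1q, Cd3 and B cell UMIs, where only 4 genes had enough counts.

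Specific granule transcripts were lower in knockout neutrophils for all 16 list genes, with a median log2 ratio of -0.71, and 15 of the 16 counting intervals lay below 0. The other cells, with the barcodes removed by the lineage limits among them, had -0.57 for the same genes. Only Olfm4 and Chil3, 2 of the 16, were at least 2-fold lower. Camp, the cathelicidin precursor (chromosome 9, 109847379 to 109849617, reverse strand), had 10881 CPM (10765 to 10997) in wild-type and 5482 CPM (5393 to 5572) in knockout neutrophils, a log2 ratio of -0.99 (-1.02 to -0.96). Ngp, neutrophilic granule protein (chromosome 9, 110419747 to 110423012), had 10132 and 5641 CPM, a log2 ratio of -0.84. Both genes were lower in the knockout library. Only 16.6% of wild-type and 10.8% of knockout neutrophils had 10 or more Camp UMIs. The counting intervals treat UMIs as independent and do not cover this clustering in cells.

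Ltf, lactoferrin, had 1800 CPM (1753 to 1848) and 1207 CPM (1165 to 1250). Lcn2, a protein that binds bacterial siderophores, had 4865 and 3102 CPM, and Mmp8, the neutrophil collagenase, 643 and 363 CPM, with log2 ratios of -0.65 and -0.82. Chil3, a chitinase-like lectin, had 1013 and 449 CPM (-1.17, -1.27 to -1.08; -1.09 in the other cells), and Cd177, a surface glycoprotein stored in these granules, 274 and 149 CPM (-0.87). Olfm4, olfactomedin 4, which marks a subset of neutrophils, had 107 CPM (95.9 to 119, 333 UMIs) and 6.45 CPM (3.76 to 10.3, 17 UMIs), with its UMIs in 41 wild-type and 11 knockout cells. Anxa1, Hp and Chil1 each stood at -0.36, and Ceacam10 at -0.03, with 41.2 and 40.2 CPM. The size of the difference depended on the members: the list median was -0.40 with at most 20 C1q UMIs, -0.20 with the rule applied after thinning and -1.21 with 0 C1q, Cd3 and B cell UMIs. Camp was -0.49, -0.29 and -1.62 in the same 3 settings, and Chil3 -0.70, -0.09 and -2.92.

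**Figure D2:**
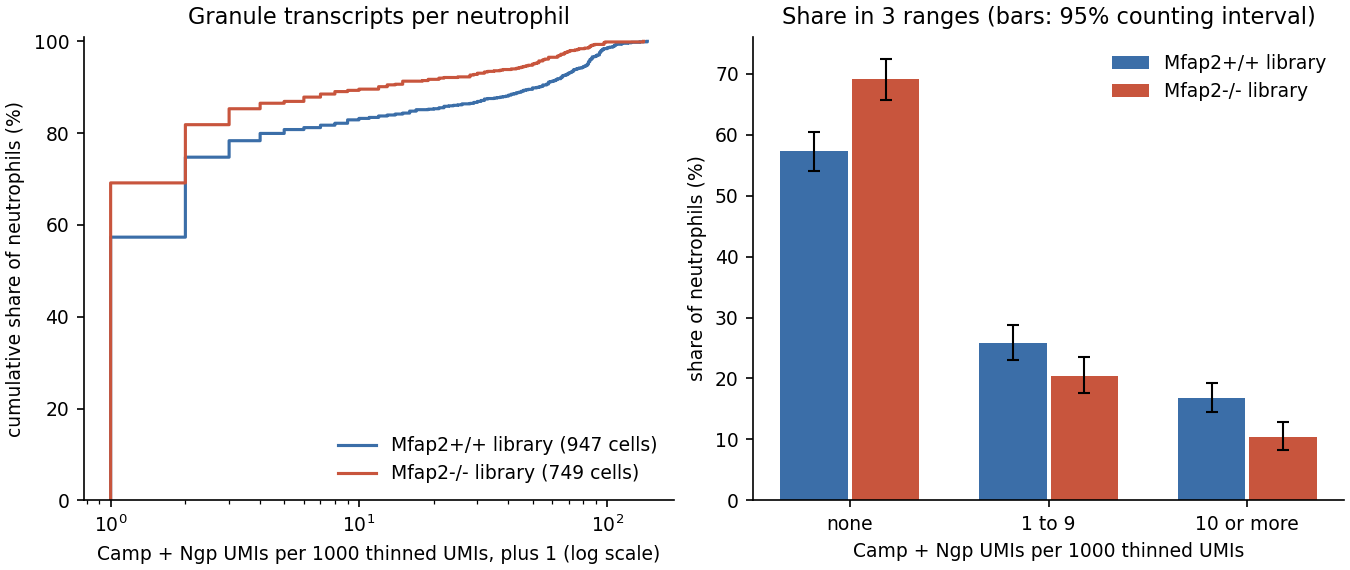
Camp and Ngp UMIs per neutrophil after thinning to 1000 UMIs: the cumulative share of cells (left, y axis in %, x axis on a log scale with 1 added) and the share of cells in 3 ranges with Clopper-Pearson intervals (right), for 947 wild-type and 749 knockout neutrophils. The knockout curve starts higher, at 69.2% of cells with none against 57.3%, and 10.4% of its cells against 16.8% had 10 or more.

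Camp and Ngp also sat in a minority of cells, and the libraries differed in how many such cells they held. After thinning, which left out 22 wild-type and 10 knockout neutrophils under 1000 UMIs, 159 of 947 wild-type (16.8%, 14.5 to 19.3) and 78 of 749 knockout neutrophils (10.4%, 8.32 to 12.8) had 10 or more UMIs of both genes together. None were found in 57.3% (54.1 to 60.5) and 69.2% (65.7 to 72.5), and 1 to 9 in 25.9% and 20.4%. In B cells, 23.7% and 13.8% had at least 1 such UMI after thinning, so the range of 1 to 9 overlaps with the B cell background. The share with 10 or more was 18.6% and 14.4% with at most 20 C1q UMIs, and 18.9% and 16.9% with the rule applied after thinning. In that last setting the interval of each library (16.3 to 21.7 and 14.2 to 19.9) held the other's share. These ranges are cuts along a continuous level, not cell types.

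**Figure D3:**
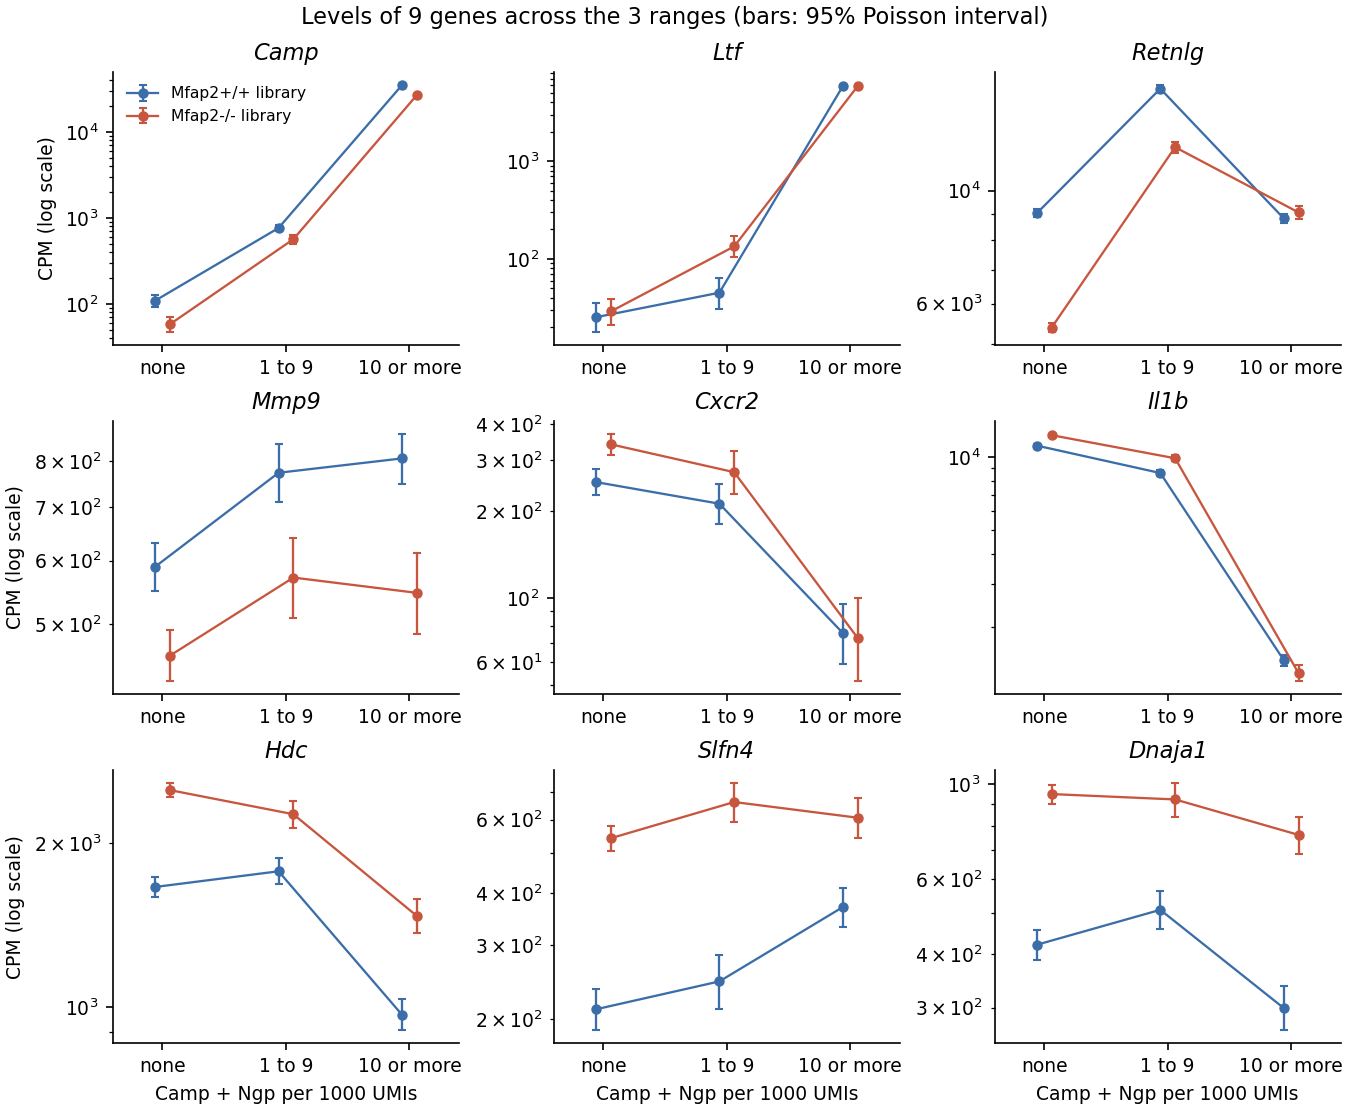
CPM (y axis, log scale) of 9 genes in neutrophils with no, 1 to 9 and 10 or more Camp and Ngp UMIs per 1000 (x axis), with exact Poisson intervals, wild-type library in blue and knockout library in red. Ltf ends at 5859 CPM in both libraries, Il1b and Cxcr2 are lower in the range of 10 or more, and Slfn4 and Dnaja1 are higher in the knockout library in all 3 ranges.

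The ranges differed widely in other genes. Cells with 10 or more Camp and Ngp UMIs had more S100a8 and S100a9 (medians of 20.1% and 18.8% of UMIs, against 6.32% and 4.99% in cells with none) and were deeper, at 5083 and 6353 against 2218 and 2731.5 UMIs. Cebpe, the factor of late granule genes, had 342 and 256 CPM in them and 10.5 and 8.81 CPM in cells with none. Mki67, a gene of dividing cells, had 115 and 145 CPM against 23.9 and 31.5 CPM.

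Il1b was lower in the cells with many granule transcripts. It had 11148 and 12306 CPM in cells with none and 1459 and 1289 CPM in cells with 10 or more. Cxcr2, the receptor for CXCL2, had 252 and 340 CPM against 75.6 and 72.7 CPM, and Csf3r, the G-CSF receptor, 1094 and 1116 CPM against 109 and 134 CPM. Retnlg was highest in the middle range, at 15862 and 12174 CPM, and Mmp9 had 590, 773 and 806 CPM in the 3 wild-type ranges and 456, 572 and 547 CPM in the knockout ranges. In the range of 10 or more, the libraries lay closer together in some granule genes than over all neutrophils. Ltf had 5859 and 5859 CPM (log2 ratio 0.00, -0.06 to 0.06), Camp had 35123 and 26877 CPM (-0.39) and the specific granule list a median of -0.22. Camp and Ngp are in that list and also set the range, so their closeness follows in part from the cut. Not all genes lay closer: Olfm4 had 293 and 0 UMIs there. Of the 16 list genes, 13 were still lower in that range, among them Mmp8 (-0.59) and Chil3 (-0.50). In cells with none, the list median was -0.54, with 13 of 15 genes lower. In the range of 1 to 9 it was -0.16, with 9 of 16 genes lower. Over the cells with under 10, Ltf was higher in the knockout library, with a log2 ratio of 0.76 from 184 UMIs. In cells with none, Ltf had 25.3 and 29.0 CPM (0.19, -0.47 to 0.87). B cells had 32.0 and 51.3 CPM of Ltf, and the part of free RNA in this difference was not tested.

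Among cytokines and chemokines, 13 of 21 genes were higher and 8 lower, with a median log2 ratio of 0.26 (-0.08 in the other cells), and 0 were 2-fold apart. That median was -0.23 with 0 UMIs of the C1q, Cd3 and B cell genes. Il1b stood at 7634 CPM (7537 to 7732) in wild-type and 9664 CPM (9546 to 9784) in knockout neutrophils, a log2 ratio of 0.34 (0.31 to 0.37), with -0.03 in the other cells. Its antagonist Il1rn had 182 and 237 CPM (0.38). The chemokine gene Cxcl2 had 10746 and 10047 CPM, a log2 ratio of -0.10 (-0.12 to -0.07) that became 0.09 when 10 UMIs of S100a8 and S100a9 sufficed. Il1b and Il1rn were thus higher and Cxcl2 near level.

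Ptgs2, the inducible cyclooxygenase, had 541 CPM (516 to 568) and 982 CPM (945 to 1021), a log2 ratio of 0.86 (0.77 to 0.95), with 0.67 in the other cells. Il15, a cytokine for lymphocytes, had 175 and 333 CPM (0.93), and Cxcl1 37.0 and 68.7 CPM (0.89, 0.55 to 1.24), against -0.37 for Cxcl1 in the other cells. Tnf was lower, with 345 CPM (325 to 366) and 209 CPM (192 to 227), a log2 ratio of -0.72 (-0.88 to -0.57), as did Ccl3 and Ccl4 at -0.39 and -0.55. Osm stood at 841 and 810 CPM, with an interval that includes 0 (-0.14 to 0.03). Ptgs2 was also higher within the range with no Camp and Ngp UMIs, at 800 and 1278 CPM, and Tnf lower there, at 396 and 221 CPM. Il1b overlaps the antisense gene Il1bos.

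The 15 chemotactic receptor genes had a median of 0.04, 9 higher and 6 lower, with none 2-fold apart. Cxcr2 had 189 CPM (174 to 205) and 273 CPM (254 to 294), and Ccr1, a receptor for CCL3, 341 CPM (320 to 362) and 511 CPM (484 to 539), log2 ratios of 0.53 and 0.59. The formyl peptide receptor Fpr1 had 305 and 298 CPM and the complement receptor C5ar1 563 and 571 CPM. Ltb4r1, the leukotriene B4 receptor, was lower, at 92.0 and 53.5 CPM (-0.78, -1.08 to -0.48). Cxcr2 is a gene of the rule, so its values are a description. A Cxcr2 UMI was found in 40.4% and 53.9% of cells, and in 20.6% (18.1 to 23.3) and 23.0% after thinning, while B cells had 0.631% and 0.406%.

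Pattern recognition and Fc receptor genes (19) had a median of 0.13, 13 higher and 6 lower, against -0.06 in the other cells. Nlrp3, an inflammasome sensor, had 706 CPM (677 to 736) and 1168 CPM (1127 to 1210), a log2 ratio of 0.73 (0.65 to 0.81; 0.13 in the other cells). Mefv, which encodes pyrin, had 28.3 CPM (22.7 to 34.9) and 72.9 CPM (63.0 to 84.0), a log2 ratio of 1.36 and the 1 member at least 2-fold higher. Tlr4, the lipopolysaccharide receptor, had 51.1 and 94.2 CPM (0.88), while Tlr2 had 158 and 149 CPM. A Nlrp3 UMI was found after thinning in 49.7% (46.5 to 53.0) and 62.2% (58.6 to 65.7) of neutrophils, against 2.90% and 3.16% of B cells.

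Interferon response genes were higher in knockout neutrophils for 24 of 30 members, with a median log2 ratio of 0.65. The intervals of 19 lay above 0 and those of 2 below, and 8 were at least 2-fold higher, against 6.0% of all genes. Ifit1, which binds viral RNA, had 33.4 CPM (27.3 to 40.5) and 77.8 CPM (67.5 to 89.2), a log2 ratio of 1.21 (0.87 to 1.57). Rsad2, viperin, had 110 and 207 CPM (0.92), and Oasl1 62.4 and 131 CPM (1.07). The other cells had 0.44 as the list median, and classical monocytes had 0.58, patrolling monocytes 0.40 and B cells 0.32, so the same direction was present in each of these cell groups. In the 16 alternatives the neutrophil median lay between 0.44 and 0.68. In the ranges with no, 1 to 9 and 10 or more Camp and Ngp UMIs it was 0.56, 0.41 and 0.19, where all genes had 0.05, 0.03 and 0.13.

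Slfn4, a schlafen gene of myeloid cells (chromosome 11, 83175186 to 83190216, forward strand), was the list member highest over the other cells, 29.2-fold and 39.5-fold above the other cells. It had 268 CPM (250 to 286) and 577 CPM (548 to 607), a log2 ratio of 1.11 (0.99 to 1.23), against 0.67 in the other cells. In classical monocytes it had 9.50 and 54.2 CPM. A Slfn4 UMI was found after thinning in 19.9% (17.4 to 22.5) and 38.3% (34.8 to 41.9) of neutrophils and in 0.378% and 0.487% of B cells. Its log2 ratios in the 3 Camp and Ngp ranges were 1.36, 1.42 and 0.71. Ifitm6 (740 and 466 CPM, -0.66) and Ifitm3 (1562 and 1236 CPM, -0.34), which encode membrane proteins that block viral entry, were lower. Ifitm1 stood at 1065 and 1093 CPM in neutrophils while the other cells had -1.08.

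Heat shock and co-chaperone genes were higher for all 18 members, with a median of 0.77, and 17 intervals lay above 0. At least 2-fold higher were 5 genes, among them Hsph1, a co-chaperone of HSP70 (chromosome 5, 149614287 to 149636376, reverse strand), with 68.2 CPM (59.3 to 78.0) and 232 CPM (214 to 251), a log2 ratio of 1.76, and Dnaja1, with 404 and 906 CPM (1.16). Bag3, which hands clients to autophagy, had 22.2 and 52.4 CPM (1.23). The other cells had 1.68 for Hsph1, 1.79 for Bag3 and 0.80 as the list median; classical monocytes had 0.76, patrolling monocytes 0.64 and B cells 0.64.

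These levels in neutrophils were low next to those around them. Hsph1 in neutrophils was 0.199 and 0.212 times its level in the other cells, and after thinning an Hsph1 UMI was found in 4.44% and 16.8% of neutrophils against 33.4% and 59.9% of B cells. The difference was present in each Camp and Ngp range, with list medians of 0.68, 0.45 and 0.85. The part of free RNA from other cells in the neutrophil values was not tested. Dnaja1 overlaps Smu1 and Gm6297 on the opposite strand.

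**Figure D4:**
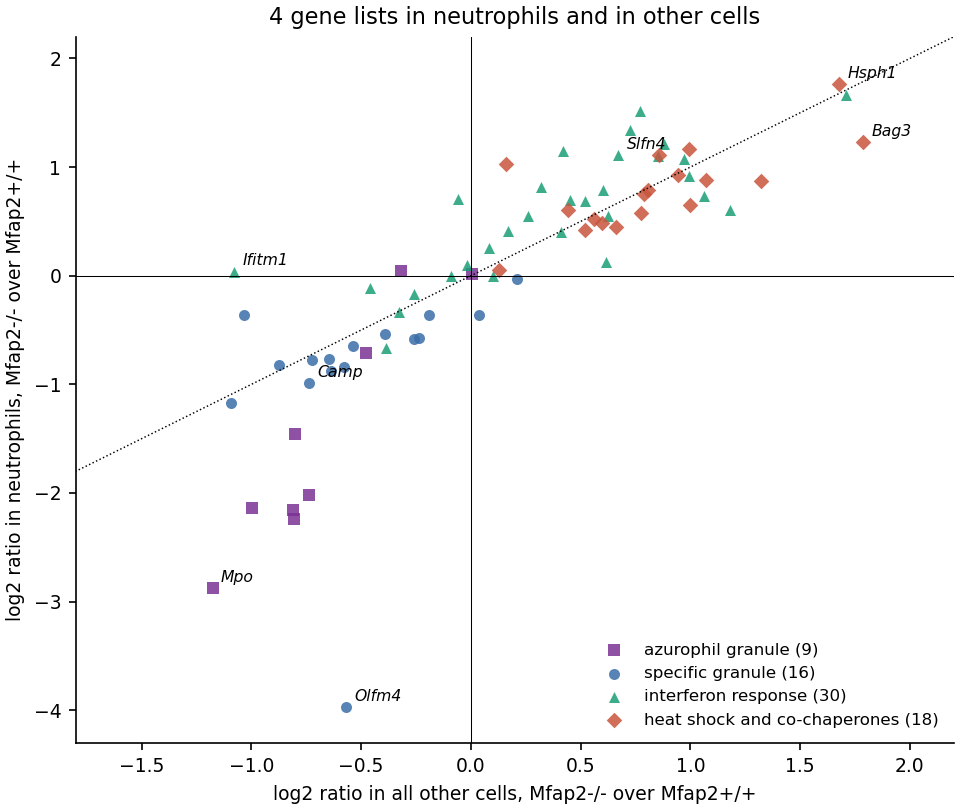
Log2 ratio (knockout over wild type) in neutrophils (y axis) against that in all other cells (x axis) for the genes of 4 lists, with the line of equality dotted. Heat shock genes such as Hsph1 (1.76 and 1.68) lie near the line, Slfn4 (1.11 and 0.67) above it, and Mpo (-2.88 and -1.18) and Olfm4 (-3.97 and -0.57) below it.

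Among the 876 genes with a mean of at least 100 CPM that, in the library where they were higher, were at or above the other cells, and without the rule genes, the highest ratios were those of Ppp1r3b, Smad3, Tgm2, Slfn4, Basp1, Uty, Mpp7, Trim30d, Stat4, Isy1, Cnnm2, Lamb3, Cd80, Ankrd13c and Myo1d. A gene could enter through 1 library alone, so this ranking is a description: 2 of the 15 highest genes were below the other cells in the wild-type library, and 3 of the 15 lowest were below them in the knockout library. Ppp1r3b, a subunit that directs a phosphatase to glycogen (chromosome 8, 35375739 to 35388139, forward strand), had 64.9 CPM (56.3 to 74.6) in wild-type and 151 CPM (137 to 167) in knockout neutrophils, a log2 ratio of 1.21 (0.97 to 1.47), and a log2 ratio of 0.00 in the other cells. Tgm2, transglutaminase 2, had 245 CPM (228 to 263) and 542 CPM (514 to 571), a log2 ratio of 1.15, with 0.17 in the other cells. The pooled other cells were near level for both genes, but Tgm2 was also higher in knockout monocytes, at 116 and 179 CPM in classical and 458 and 538 CPM in patrolling monocytes.

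Smad3, which carries TGF-β signals, had 116 and 262 CPM (1.17; 0.43 in the other cells), Basp1 408 and 868 CPM (1.09; 0.24), and Cd80, a co-stimulatory ligand for T cells, 185 and 367 CPM (0.99; 0.71). A Tgm2 UMI was found after thinning in 23.3% and 37.1% of neutrophils and in 2.77% and 4.14% of B cells. In the range with no Camp and Ngp UMIs Tgm2 had 358 and 680 CPM. Stat4 was found in 72.8% and 76.0% of B cells, against 22.7% and 34.4% of neutrophils, and the part of free RNA in its neutrophil count was not tested. Lamb3 lies over G0s2 on the opposite strand, Tgm2 over Rprd1b and Ppp1r3b over Gm45469, and reads of such pairs cannot be told apart without strand.

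The 15 lowest ratios included those of Mpo, Elane, Prtn3, Chil3, Hmgn2, Serpinb1a, Camp, Pgk1, H2afz, Grina, C3, Cd177, Ngp and Tkt. Of these 15, 7 belong to the azurophil and specific granule lists, which hold 16 of the 876 candidates (1.83%). The lists were chosen with earlier results of these data known, and the UMIs of Mpo, Elane and Prtn3 sat in few cells. The count is therefore a description. Serpinb1a, an inhibitor of their proteases, had 170 and 81.3 CPM (-1.06, -1.30 to -0.83). Hmgn2 and H2afz, chromatin proteins that are high in dividing cells, had 297 and 134 CPM (-1.15) and 974 and 506 CPM (-0.94), against -0.42 and -0.19 in the other cells. Pgk1, a glycolytic enzyme, had 182 and 93.8 CPM (-0.95), with -0.82 in the other cells.

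Other effector lists were level or shared their direction with the other cells. The gelatinase granule and matrix protease list had a median of -0.07 (12 genes, 5 higher, 7 lower): Mmp9 had 698 CPM (669 to 728) and 496 CPM (470 to 524), a log2 ratio of -0.49, and Arg2, arginase 2, 620 and 808 CPM (0.38; -0.60 in the other cells). Slpi, a protease inhibitor, had 2290 and 1534 CPM (-0.58). The NADPH oxidase and antioxidant list had -0.36, as the other cells did: the membrane subunits Cybb and Cyba had log2 ratios of -0.44 and -0.61, and the cytosolic subunit Ncf1 0.36. Glycolysis and hypoxia genes had -0.41 (-0.48 in the other cells), with Gapdh at 1079 and 718 CPM and the glucose transporter Slc2a3 at 245 and 303 CPM. Stefin A and related inhibitors had -0.74 (9 genes, 3 at least 2-fold lower; -0.68 in the other cells), with Asprv1, a skin-type protease that neutrophils carry, at 602 and 359 CPM.

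**Figure D5:**
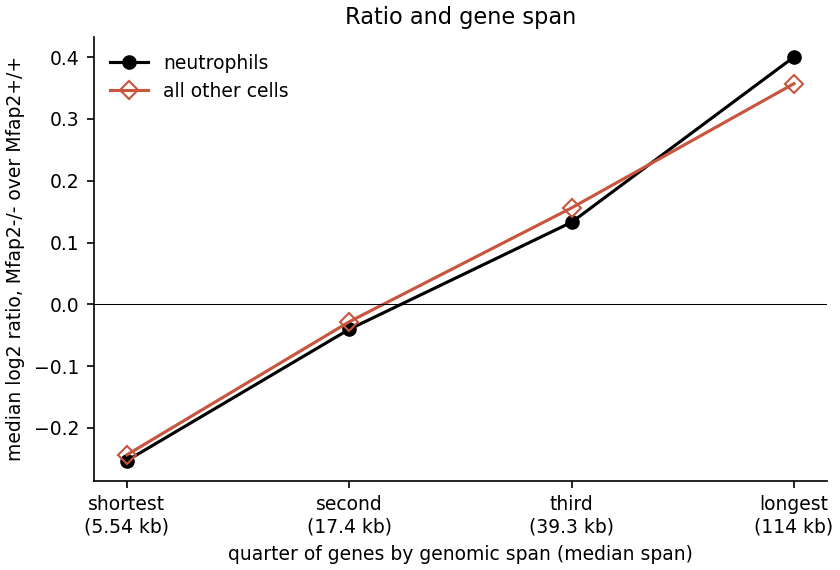
Median log2 ratio (y axis, knockout over wild type) of the genes in 4 equal groups by genomic span (x axis, median span in kb), in neutrophils (black) and all other cells (red). The median climbs from -0.25 in the shortest to 0.40 in the longest genes in neutrophils and from -0.24 to 0.36 in the other cells.

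The span of a gene moved with its ratio between the libraries. The median log2 ratio in neutrophils was -0.25, -0.04, 0.13 and 0.40 from the shortest to the longest of 4 equal groups of genes by genomic span, and -0.24, -0.03, 0.16 and 0.36 in the other cells. The genes at least 2-fold higher had a median span of 44.0 kb, those at least 2-fold lower 10.4 kb, and all genes 26.4 kb. Ribosomal protein genes, which are short, accounted for 6.16% and 3.92% of neutrophil UMIs in the wild-type and knockout libraries, and the nuclear RNA Malat1 had 11180 and 16116 CPM (0.53). Elane, Camp and Ngp span 1969, 2239 and 3266 bases, and Smad3, Stat4 and Cnnm2 span 111228, 120042 and 118597 bases. The part of gene span in the list medians above was not tested.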

How the data were processed

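Liver non-parenchymal cells of 1 wild-type and 1 knockout library were profiled on the Chromium 3′ v3 platform, per the labels' protocols. The authors deposited filtered matrices of raw UMI counts per gene and barcode, which per the file headers came from Cell Ranger 7.0.1, while the submitters' processing notes name Cell Ranger 3.1.0, Seurat and mm10. The treatment of intronic reads and of strand is not given in the sources used here. The libraries held 82499307 and 118226367 UMIs in 11783 and 12872 barcodes.

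Barcodes under 200 genes or over 20% mitochondrial UMIs were dropped. The members, gene lists and rules were chosen with earlier results of these data known. No doublets were removed: the automatic Scrublet call (scanpy 1.11.5) marked 0 wild-type barcodes and so did not work there, and removal by score was an alternative. UMIs were summed per library and group of cells with numpy 2.4.6 and pandas 2.3.3. With scipy 1.17.1, Poisson intervals were computed for CPM, conditional binomial intervals for ratios and Clopper-Pearson intervals for shares. These steps were tested on simulated data. Genes entered a list's median with at least 20 UMIs over both libraries. For shares of cells, each barcode was thinned to 1000 UMIs. Other groups of cells were B cells (795 and 1235 barcodes, by Cd79a, Cd79b and Ms4a1), classical monocytes, patrolling monocytes (215 and 273, by Ace and Cd300e) and all other kept barcodes, with figures drawn in matplotlib 3.10.9.

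Genes named were the 15 highest and 15 lowest ratios at a mean of at least 100 CPM, the 20 genes highest over other cells at 500 CPM or more in both libraries, and list members with at least 20 CPM in either. Cell cycle, response element and span values were added after the data were seen. Clec7a, Aldoa, BC100530 and Gm5483 are not analysed here, and some genes that met the rule are not reported here. Of 32285 gene identifiers, 32158 (99.6%) were found in GENCODE M21 on GRCm38, used for positions. Motifs were searched in RefSeq promoters (GRCm38.p6).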

Additional observations from a re-analysis of the deposited data

How the results depend on the processing

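Each result was recomputed under up to 17 other settings. Of 105 alternatives for the main results, 79 stayed near the reported value, 26 moved and 0 changed direction. The 105 include the counts of genes at least 2-fold higher or lower. Such counts have no direction, so the 0 says nothing about them. Of the 48 single genes 45, and of the 16 lists 8, had the same sign in every setting. The settings of at most 20 C1q UMIs, no lineage limits and under 10 Camp and Ngp UMIs were chosen after seeing the data. The granule lists moved most. The azurophil median (-2.02) was -1.20 with S100a8 and S100a9 at 1% of UMIs, -0.62 with the rule after thinning, -0.17 with 0 UMIs of other lineages, -0.99 with at most 20 C1q UMIs, -1.23 as a mean of cells, -1.12 thinned before summing and -3.07 without the 5 deepest cells. The specific granule median (-0.71) was -0.53 with 10 S100a8 and S100a9 UMIs, -0.20 with the rule after thinning, -1.21 with 0 UMIs of other lineages, -0.40 with at most 20 C1q UMIs and -0.49 under 10 Camp and Ngp UMIs. The heat shock median was 0.40 with 10 S100 UMIs, 1.11 with 0 UMIs of other lineages and 1.09 thinned. The share ratio was -1.01 with 0 UMIs of other lineages (291 cells) and -0.30 without lineage limits. Genes at least 2-fold higher numbered 239 with 0 UMIs of other lineages, 3111 without a filter and 157 at 100 UMIs. Genes at least 2-fold lower numbered 602 with 10 S100 UMIs, 187 with the rule after thinning, 146 with 0 UMIs of other lineages, 148 thinned, 1181 without a filter and 73 at 100 UMIs; fewer genes or UMIs enter in several of these. The sign turned in single genes for Cxcl2 (0.087 with 10 S100 UMIs), Ms4a3 (0.070 with 0 UMIs of other lineages) and Ltf (0.76 under 10 Camp and Ngp UMIs). Among lists it turned for immediate early genes (-0.00309 with 0 UMIs of other lineages and -0.00486 with scaling by the median of ratios), for cytokines (-0.23 with 0 UMIs of other lineages) and, in 4 to 11 settings each, for the gelatinase, chemotactic, adhesion, survival, transcription factor and surface lists, whose reported medians lay between -0.07 and 0.07. The cause was not tested. No paired analysis was possible because each genotype has 1 library. At the depth reached, a gene at 0 may reach 0.965 CPM in wild-type and 1.14 CPM in knockout neutrophils.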

Other observations

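Immediate early genes were abundant in neutrophils of both libraries, and 13 of 22 were higher and 9 lower in the knockout library, with a median log2 ratio of 0.08. Fos had 4361 and 5578 CPM (0.36) and Atf3, a stress-induced factor, 946 and 1339 CPM (0.50), whereas Jun stood at 2060 and 2079 CPM. Socs3, which limits cytokine signals, had 97.4 and 157 CPM (0.69), and Klf2, a factor of quiescence, 4333 and 3252 CPM (-0.41). The direction of the list median was not stable across settings.

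Survival and apoptosis genes were near level (20 genes, median 0.07, 11 higher and 9 lower). Mcl1, on which neutrophil survival depends, had 2505 and 2572 CPM, with an interval of the log2 ratio that includes 0 (-0.01 to 0.09). Bcl2l1, an anti-apoptotic relative, had 76.5 and 128 CPM (0.74, against -0.04 in the other cells), and the pro-apoptotic gene Bcl2l11, which encodes BIM, 520 and 701 CPM (0.43). Bak1 had 22.8 and 11.4 CPM (-0.98). Among transcription factors of granulopoiesis, Cebpe was lower (117 and 61.5 CPM, -0.92) and Runx1 higher (315 and 557 CPM, 0.82), while Cebpb and Spi1 stood at -0.11 and -0.07.

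Adhesion genes had a median of -0.04, with 7 higher and 7 lower. Cd44, a hyaluronan receptor, had 1709 and 2153 CPM (0.33). The integrin subunit genes Itgam and Itgb2 stood at 0.02 and -0.09.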
